A study of Homo sapiens with 24 samples.

Results

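With DMSO, the introns described here were removed from nearly all nuclear transcripts of control cells and stayed in a larger share of nuclear transcripts after depletion of ERH, which is how they were chosen. With cycloheximide many were also retained in control nuclei. Retention was read as the IR ratio, which runs from 0 to 1 and sets the coverage of an intron against that coverage plus the spliced reads across it. An intron was chosen by its nuclear libraries with DMSO: it had to be clean (free of other annotated exons), its coverage plus spliced reads had to average at least 20 over the 6 libraries, and its mean IR ratio had to be at least 0.15 in the 3 sgERH libraries and under 0.05 in the 3 sgAAVS1 libraries. This gave 415 introns in 272 genes, or 0.32% of the 129677 introns, in 10456 genes, that reached the coverage minimum. The tables held 233113 introns in all. Because the introns were selected on nuclear RNA with DMSO, their difference in those libraries is a description and carries no test. The libraries with cycloheximide and the cytoplasmic libraries had no part in the choice and were tested.

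All samples were RKO cells, a human colon carcinoma line in long use, in which doxycycline switches on Cas9, and every culture received doxycycline at 100 ng/mL for 5 days. The guide RNA cut ERH (sgERH, the depleted cells) or AAVS1, a safe-harbour locus that serves as the control cut (sgAAVS1). Cycloheximide (CHX, an inhibitor of translation) at 25 µg/mL or DMSO was given for 4 h, nuclei and cytoplasm were separated, and polyadenylated RNA was sequenced. The 8 groups were sgERH and sgAAVS1 nuclei with DMSO, sgERH and sgAAVS1 nuclei with CHX, sgERH and sgAAVS1 cytoplasm with DMSO, and sgERH and sgAAVS1 cytoplasm with CHX, with 3 libraries each and 24 in all. Both guides thus share the Cas9 cut, the doxycycline and the cell line, and a cut population is a mixture of edited alleles. Replicates carry the label biological and a number, and nothing on separate cultures, so that p-values cover only the spread between these libraries. The fractions address whether RNA that keeps an intron without ERH reaches the cytoplasm, and CHX whether it is otherwise lost to decay.

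Most human introns are removed while the transcript is being made or soon after, in the nucleus. A transcript that keeps an intron is often held in the nucleus, and one that reaches ribosomes commonly meets a stop codon in the intron and is degraded by nonsense-mediated decay (NMD), which needs translation. ERH is a small, conserved nuclear protein found with splicing and RNA export factors.

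Library totals ranged between 27.85 and 79.45 M counts over the 24 libraries. ERH RNA was lower in sgERH than in sgAAVS1 cytoplasm, at 59.4 to 86.9 CPM (counts relative to the library total) in sgERH and 137 to 158 CPM in sgAAVS1 with DMSO. In nuclei with CHX, sgERH replicate 2 had 16.8 CPM of ERH, above the highest sgAAVS1 library at 15.6 CPM, and ERH RNA therefore does not check that label. Of 11 colon epithelial markers, 4 reached a mean of 1 CPM (KRT8, KRT18, CDX2 and EPCAM), while CDX1 and KRT20 were at 0 and CDH1 was at most 0.145 CPM. Fibroblast markers summed to at most 5.77 CPM. The 7 leukocyte markers summed to 161 to 221 CPM in sgERH and 55.7 to 88.9 CPM in sgAAVS1 nuclei with DMSO. The sgERH sums lay above the sgAAVS1 sums in each fraction and treatment. Most of this was CD68, a lysosomal protein also made outside leukocytes, at 55.2 to 395 CPM. ITGAM was at most 17.6 CPM and PTPRC at most 0.234 CPM, and CD3E and MS4A1 were at 0. Their part in the results below was not tested. Nuclear libraries held 21.1 to 21.2 reads across an exon-intron boundary per 100 spliced reads in sgERH and 25.0 to 26.1 in sgAAVS1 with DMSO, and 16.3 to 18.03 in sgERH and 24.6 to 25.3 in sgAAVS1 with CHX.

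Short members picked as examples are given whole, and all but VPS13A intron 18 recur in the results. Each line is the transcribed strand, read 5′ to 3′ from GRCh38, with 10 exon bases on either side. Capitals mark the first 6 and the last 2 bases of the intron, which belong to the 5′ and 3′ splice sites.
UBE3A intron 10 (chr15:25354417-25354537, minus strand): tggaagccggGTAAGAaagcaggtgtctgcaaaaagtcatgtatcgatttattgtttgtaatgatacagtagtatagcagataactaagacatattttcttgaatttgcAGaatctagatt
CENPE intron 27 (chr4:103148990-103149127, minus strand): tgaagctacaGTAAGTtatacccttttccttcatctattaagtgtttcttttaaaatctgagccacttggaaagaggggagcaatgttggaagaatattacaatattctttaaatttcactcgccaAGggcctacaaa
VPS13A intron 18 (chr9:77238182-77238281, plus strand): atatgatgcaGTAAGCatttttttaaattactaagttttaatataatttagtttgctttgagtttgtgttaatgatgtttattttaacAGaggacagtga
XPO1 intron 15 (chr2:61492189-61492334, minus strand): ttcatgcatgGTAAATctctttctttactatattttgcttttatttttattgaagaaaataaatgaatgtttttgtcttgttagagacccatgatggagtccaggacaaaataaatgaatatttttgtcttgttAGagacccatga
DIS3 intron 18 (chr13:72761512-72761655, minus strand): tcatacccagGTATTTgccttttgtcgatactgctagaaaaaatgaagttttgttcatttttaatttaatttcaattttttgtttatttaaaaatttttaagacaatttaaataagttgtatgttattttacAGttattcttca
RICTOR intron 23 (chr5:38958510-38958676, minus strand): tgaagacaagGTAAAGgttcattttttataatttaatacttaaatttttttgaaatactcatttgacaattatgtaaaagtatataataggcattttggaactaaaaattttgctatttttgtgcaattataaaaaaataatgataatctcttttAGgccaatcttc

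All of these introns were rich in A and T. The GC content was 18.4% in the RICTOR intron, 19.4% in the DIS3 intron and 20% in the VPS13A intron. It was 26.2% in the XPO1 intron, 31.7% in the UBE3A intron and 33.9% in the CENPE intron.

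For longer members, the first 90 bases of the intron after 20 exon bases are given as the 5′ junction, because a ribosome that reads into the intron meets these bases first. Capitals there mark the first stop codon in the frame of the coding exon. The 3′ junction holds the last 40 intron bases and 10 exon bases, with the closing AG in capitals.
ATR intron 37 5′ junction (chr3:142469996-142470105, minus strand): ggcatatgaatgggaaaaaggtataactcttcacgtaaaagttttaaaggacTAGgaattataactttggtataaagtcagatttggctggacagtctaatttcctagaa
ATR intron 37 3′ junction (chr3:142469560-142469609, minus strand): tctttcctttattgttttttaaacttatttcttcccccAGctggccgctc
LARP4B intron 9 5′ junction (chr10:830777-830886, minus strand): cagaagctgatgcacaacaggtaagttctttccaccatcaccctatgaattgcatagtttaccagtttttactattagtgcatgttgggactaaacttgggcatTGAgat
LARP4B intron 9 3′ junction (chr10:829725-829774, minus strand): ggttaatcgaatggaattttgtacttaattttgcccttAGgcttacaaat
ASPM intron 13 5′ junction (chr1:197124020-197124129, minus strand): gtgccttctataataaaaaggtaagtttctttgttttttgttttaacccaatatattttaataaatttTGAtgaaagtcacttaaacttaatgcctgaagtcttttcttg
ASPM intron 13 3′ junction (chr1:197122586-197122635, minus strand): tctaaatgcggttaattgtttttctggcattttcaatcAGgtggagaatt
TRPM7 intron 19 5′ junction (chr15:50609491-50609600, minus strand): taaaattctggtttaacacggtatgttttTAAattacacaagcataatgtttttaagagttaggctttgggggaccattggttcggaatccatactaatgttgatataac
TRPM7 intron 19 3′ junction (chr15:50607319-50607368, minus strand): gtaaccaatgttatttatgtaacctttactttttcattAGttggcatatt
BPTF intron 10 5′ junction (chr17:67909742-67909851, plus strand): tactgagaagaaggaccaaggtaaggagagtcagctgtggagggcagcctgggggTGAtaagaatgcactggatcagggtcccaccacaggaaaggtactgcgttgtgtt
BPTF intron 10 3′ junction (chr17:67910837-67910886, plus strand): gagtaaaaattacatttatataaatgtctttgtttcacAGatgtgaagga
TOPBP1 intron 5 5′ junction (chr3:133656586-133656695, minus strand): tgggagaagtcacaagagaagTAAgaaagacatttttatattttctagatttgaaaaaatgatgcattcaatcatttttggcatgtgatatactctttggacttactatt
TOPBP1 intron 5 3′ junction (chr3:133655477-133655526, minus strand): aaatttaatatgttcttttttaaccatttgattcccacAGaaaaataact
PIK3C2A intron 16 5′ junction (chr11:17119696-17119805, minus strand): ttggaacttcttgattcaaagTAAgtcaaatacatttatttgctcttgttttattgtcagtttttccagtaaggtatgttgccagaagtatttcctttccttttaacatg
PIK3C2A intron 16 3′ junction (chr11:17119304-17119353, minus strand): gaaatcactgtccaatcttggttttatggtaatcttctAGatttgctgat
JAK2 intron 15 5′ junction (chr9:5077561-5077670, plus strand): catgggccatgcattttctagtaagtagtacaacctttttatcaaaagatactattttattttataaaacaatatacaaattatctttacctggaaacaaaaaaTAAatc
JAK2 intron 15 3′ junction (chr9:5078266-5078315, plus strand): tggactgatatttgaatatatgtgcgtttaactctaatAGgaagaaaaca

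In TOPBP1 intron 5 and PIK3C2A intron 16 the stop codon begins at intron base 2, and in TRPM7 intron 19 at base 10. In LARP4B intron 9 and JAK2 intron 15 no stop codon comes before base 85. Over all members, 386 were introns of a canonical transcript, each of a protein-coding gene, and 381 of these lay within the coding region. An in-frame stop codon was found in 373 of the 381, with its first position at a median of base 22, and 8 had none.

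In nuclei with DMSO, the libraries used for the choice, the mean IR ratio of the 415 introns had a median of 0.203 (quartiles 0.172 and 0.271) in sgERH and 0.0256 (quartiles 0.0107 and 0.0377) in sgAAVS1. All 3 sgERH libraries lay above all 3 sgAAVS1 libraries for 388 of the 415, beside 5.78% of all introns that reached the coverage minimum. In nuclei with CHX the median was 0.230 (quartiles 0.148 and 0.319) in sgERH and 0.105 (quartiles 0.0572 and 0.196) in sgAAVS1. Control nuclei held more of these introns with CHX than with DMSO: all 3 CHX libraries exceeded all 3 DMSO libraries for 311 members, beside 19.3% of all introns, a comparison that uses libraries of the choice. With CHX, 87 members averaged under 0.05 in sgAAVS1 nuclei, 175 lay between 0.05 and 0.15, and 153 reached 0.15. All 3 sgERH libraries lay above all 3 sgAAVS1 libraries in nuclei with CHX for 213 members, beside 1.79% of all introns. They lay below for 22 members, beside 41.3% of all introns. For 77 members the sgERH mean lay below the sgAAVS1 mean there. The median difference, sgERH minus sgAAVS1, was 0.0964 over the members and -0.02 over all introns.

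**Figure D1:**
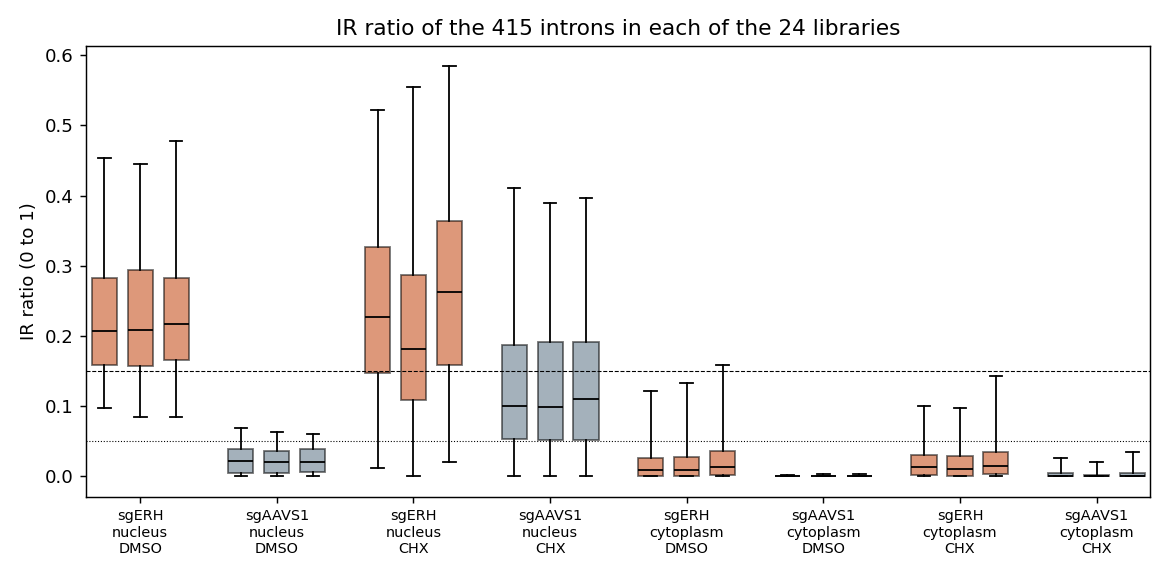
IR ratio (vertical axis) of the 415 introns in each of the 24 libraries, in 8 groups along the horizontal axis with sgERH in red left of sgAAVS1 in grey; boxes are quartiles with the median, whiskers the 5th and 95th percentiles, and the dotted and dashed lines the limits 0.05 and 0.15. The sgERH nuclei stand highest (medians of the group means 0.203 with DMSO and 0.230 with CHX), sgAAVS1 nuclei with CHX lie between (0.105), and the cytoplasm is near 0.

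In the cytoplasm little of this retention was seen. The median mean IR ratio was 0.0125 in sgERH and 0 in sgAAVS1 cytoplasm with DMSO, and 0.0136 in sgERH and 0.001 in sgAAVS1 cytoplasm with CHX. In sgERH cells with DMSO the cytoplasmic value was a median 5.44% of the nuclear one, and for 3 members it was above the nuclear one. A drop of this kind was not particular to the members. Introns that averaged at least 0.15 in nuclei with DMSO under both guides had library medians of 0.282 to 0.292 in sgERH nuclei with DMSO. In sgERH cytoplasm with DMSO their medians were 0.0088 to 0.0113. All 3 sgERH libraries lay above all 3 sgAAVS1 libraries for 243 members in the cytoplasm with DMSO, beside 10.6% of all introns, and for 218 with CHX, beside 7.77%. A mean of 0.05 was reached in sgERH cytoplasm by 85 members with DMSO or CHX, and by 40 with both.

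Members near the limits border on introns that just missed them. Just inside the sgERH limit were introns of ATR (chr3:142559442-142560262, mean IR ratio 0.1504), C12orf4 (0.1506) and MTM1 (0.1508), and just outside it introns of NARS2 (0.15 when rounded), DHX32 (0.1498) and MSH4 (0.1496). Just inside the sgAAVS1 limit were introns of WDR35 (0.0494), ACTR8 (0.0493) and RALGAPB (0.0492), and just outside it introns of MMS22L (0.05), CENPE (0.0502) and RTTN (0.0504). Of the 415 members, 372 carried a warning of the intron caller in at least 1 of the 6 nuclear DMSO libraries, most often for uneven coverage along the intron, and 43 carried none.

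The member with the most retention in sgERH nuclei with DMSO was intron 37 of ATR, the kinase that signals stalled replication forks (chr3:142469570-142470085). Its IR ratio was 0.783, 0.791 and 0.747 in sgERH and 0.0535, 0.0413 and 0.0487 in sgAAVS1 nuclei with DMSO. With CHX it was 0.703, 0.672 and 0.753 in sgERH and 0.526, 0.493 and 0.445 in sgAAVS1 nuclei, higher in the controls than with DMSO yet still without overlap between the guides (log2 fold change 1.34 ± 0.19, adjusted p = 0.000212). This fold change, as all below, is that of intron coverage relative to spliced reads, sgERH over sgAAVS1, with its standard error and a p from edgeR's quasi-likelihood test with Benjamini-Hochberg adjustment over all introns tested. The next intron, ATR intron 38, was also a member, at 0.388, 0.511 and 0.45 in sgERH and 0.0358, 0.0543 and 0.043 in sgAAVS1 nuclei with DMSO.

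Intron 10 of RANBP17, a nuclear transport receptor (chr5:170918860-170919440), had 0.694, 0.649 and 0.579 in sgERH and 0.12, 0 and 0.0261 in sgAAVS1 nuclei with DMSO. With CHX, where its sgERH mean was the highest of the members, it had 0.815, 0.709 and 0.864 in sgERH and 0.306, 0.124 and 0.469 in sgAAVS1 nuclei (log2 fold change 3.27 ± 0.59, adjusted p = 0.00105). Intron 9 of LARP4B, an mRNA-binding protein (chr10:829735-830866), had 0.621, 0.468 and 0.537 in sgERH and 0.0376, 0.0209 and 0.0354 in sgAAVS1 nuclei with DMSO. The controls of LARP4B stayed low with CHX, at 0.504, 0.497 and 0.498 in sgERH and 0.0529, 0.0603 and 0.0418 in sgAAVS1 nuclei (log2 fold change 4.18 ± 0.27, adjusted p = 1.14e-06). Intron 7 of SLC36A4, an amino acid transporter, had 0.442, 0.305 and 0.46 in sgERH and 0.0469, 0.0416 and 0.111 in sgAAVS1 nuclei with CHX (log2 fold change 3.19 ± 0.42, adjusted p = 0.000219).

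Other members with much retention lay closer to the controls with CHX. Intron 11 of WDR75, a factor of ribosome biogenesis (chr2:189463962-189465078), had 0.663, 0.544 and 0.567 in sgERH and 0.0317, 0.0188 and 0.0235 in sgAAVS1 nuclei with DMSO. With CHX it had 0.298, 0.385 and 0.439 in sgERH and 0.391, 0.322 and 0.349 in sgAAVS1 nuclei, and the groups overlapped. Intron 8 of TRMT1L, a tRNA-modifying enzyme, had 0.444, 0.523 and 0.674 in sgERH and 0.0291, 0.0046 and 0.0096 in sgAAVS1 nuclei with DMSO and 0.52, 0.492 and 0.636 in sgERH and 0.396, 0.505 and 0.463 in sgAAVS1 nuclei with CHX, again with overlap. RICTOR encodes a subunit of the mTORC2 kinase complex, and its short intron 23 had 0.574, 0.343 and 0.584 in sgERH and 0.0939, 0 and 0.0116 in sgAAVS1 nuclei with DMSO and 0.247, 0.303 and 0.339 in sgERH and 0.227, 0.029 and 0.0995 in sgAAVS1 nuclei with CHX, where it was not called (adjusted p = 0.0555).

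**Figure D2:**
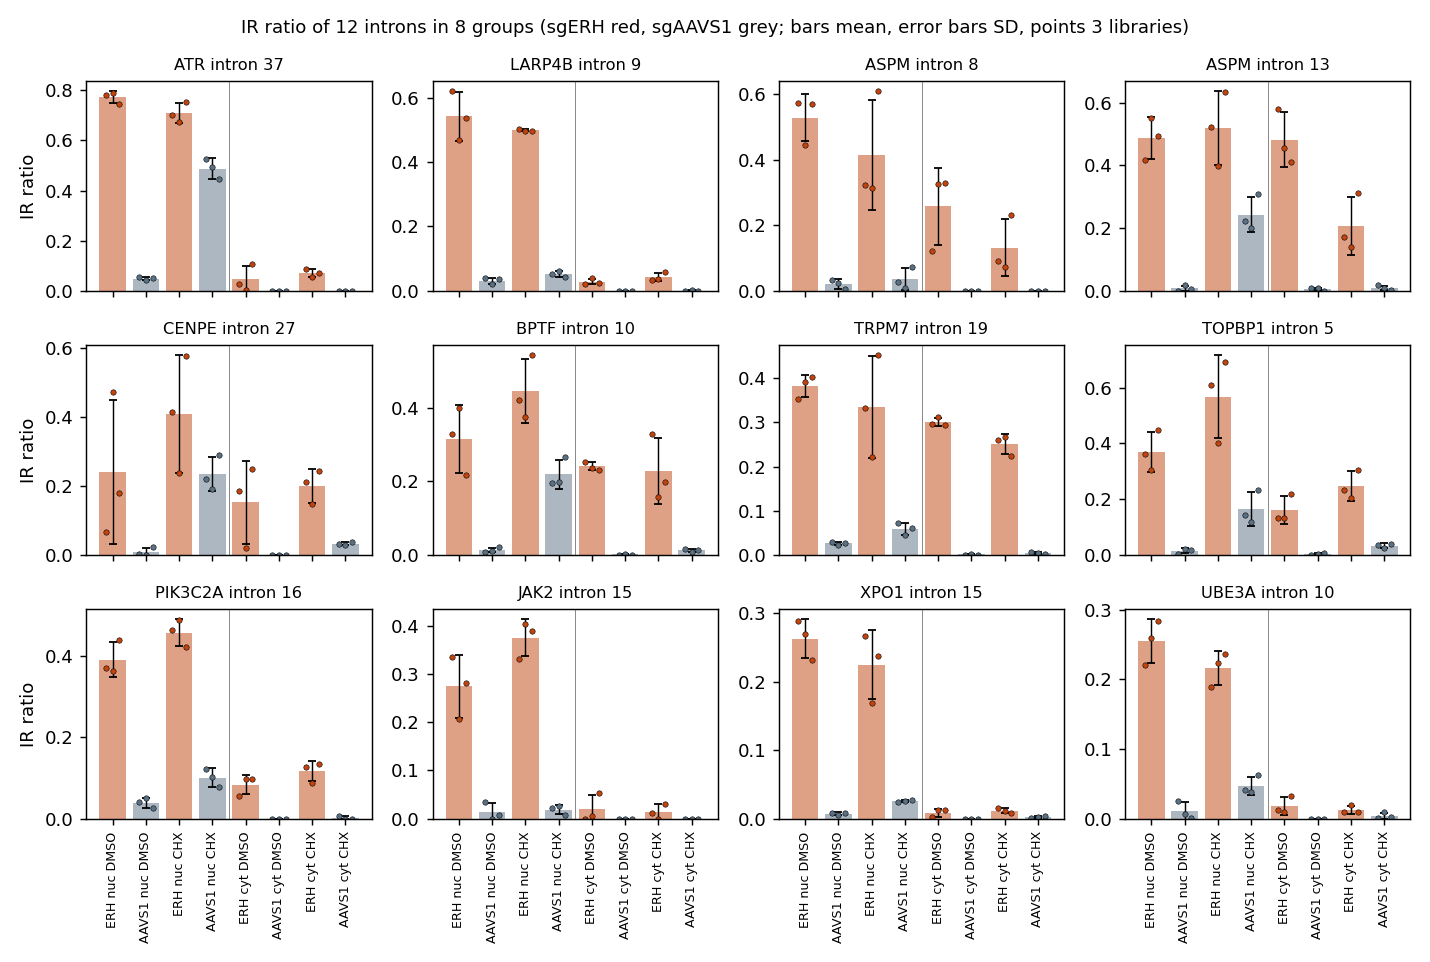
IR ratio (vertical axes) of 12 introns in the 8 groups, nucleus left and cytoplasm right of the vertical line, with sgERH in red before sgAAVS1 in grey; bars show the group mean with its SD, points each of the 3 libraries. ATR intron 37 reaches 0.445 to 0.526 in sgAAVS1 nuclei with CHX while LARP4B intron 9 stays at most 0.0603 there, and TRPM7 intron 19 and BPTF intron 10 keep clear bars in sgERH cytoplasm.

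Over all 415 members, 190 introns in 124 genes were called higher in sgERH than in sgAAVS1 nuclei with CHX, and 13 lower. A call required an adjusted p no higher than 0.05, a log2 fold change of 1 or more in either direction, and 0.05 or more as the mean IR ratio of whichever group was higher. Of the 127790 introns tested, 0.775% were called higher and 20.6% lower. The median log2 fold change was 1.21 over the members and -0.96 over all introns tested. The median over the members was 1.16 with the 18 without control coverage set to their lower bound, or to no change where no bound could be given. Of the 190, 7 reached the coverage needed for the test through sgERH libraries alone, so that a difference was built in, and 183 also through sgAAVS1 nuclear libraries of either treatment. When intron and spliced columns were scaled apart, which takes the median of all introns to -0.10, 268 members were called higher and 1 lower, beside 2.39% and 1.63% of all introns.

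**Figure D3:**
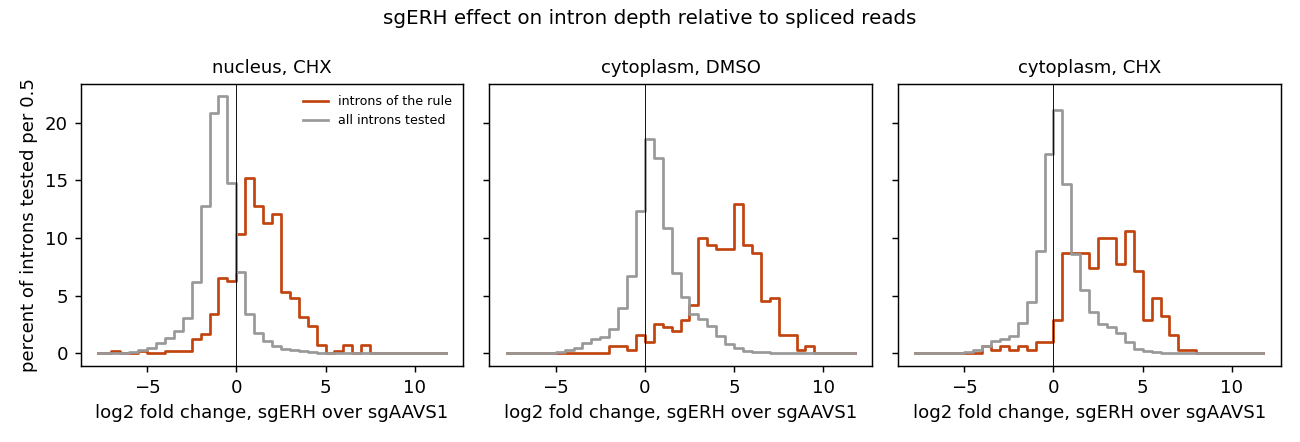
Percent of introns (vertical axes) per bin of 0.5 in log2 fold change of intron coverage relative to spliced reads, sgERH over sgAAVS1 (horizontal axes), for the introns chosen (red) and all introns tested (grey) in nuclei with CHX, cytoplasm with DMSO and cytoplasm with CHX. In nuclei with CHX the chosen introns centre on 1.21 and all introns on -0.96.

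JAK2, a kinase of interferon and other cytokine receptors, held 3 members. Intron 14 (chr9:5073786-5077452) had 0.254, 0.343 and 0.23 in sgERH and 0.0291, 0 and 0.0042 in sgAAVS1 nuclei with DMSO, and 0.29, 0.248 and 0.323 in sgERH and 0.0362, 0.034 and 0.0144 in sgAAVS1 nuclei with CHX (log2 fold change 3.79 ± 0.44, adjusted p = 3.47e-05). Intron 15 (chr9:5077581-5078305) had 0.336, 0.206 and 0.281 in sgERH and 0.0352, 0 and 0.007 in sgAAVS1 nuclei with DMSO, and 0.331, 0.404 and 0.389 in sgERH and 0.0219, 0.0265 and 0.008 in sgAAVS1 nuclei with CHX (log2 fold change 4.89 ± 0.48, adjusted p = 6.08e-06). Intron 17 (chr9:5080381-5080532) had 0.151, 0.214 and 0.117 in sgERH and 0.0155, 0.0244 and 0.0081 in sgAAVS1 nuclei with CHX (log2 fold change 3.5 ± 0.56, adjusted p = 0.00036). No JAK2 member overlapped between the guides in nuclei with CHX, with sgERH above, as for 213 of the 415 members and 1.79% of all introns. In the cytoplasm intron 15 had 0, 0.0057 and 0.0538 in sgERH and 0, 0 and 0 in sgAAVS1 with DMSO and 0.0111, 0 and 0.031 in sgERH and 0, 0 and 0 in sgAAVS1 with CHX. Introns 15 and 17 were too thinly covered in the cytoplasm to be tested. Intron 14 reached the coverage minimum there through sgERH libraries alone and was not called. The list of 38 interferon-gamma and JAK-STAT genes with an intron of enough coverage held 6 members in JAK2, JAK3 and IFNAR1 (0.988% of its introns, beside 0.32% over all genes). The 3 in JAK2 were called higher in nuclei with CHX, beside 45.8% of all members and 0.775% of all introns tested.

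PIK3C2A, a phosphoinositide kinase of endocytic membranes, held a pair of adjacent members. Intron 15 (chr11:17119975-17122187) had 0.318, 0.361 and 0.382 in sgERH and 0.057, 0.0449 and 0.0403 in sgAAVS1 nuclei with DMSO, and 0.33, 0.365 and 0.359 in sgERH and 0.119, 0.104 and 0.073 in sgAAVS1 nuclei with CHX (log2 fold change 2.31 ± 0.21, adjusted p = 1.26e-05). Intron 16 (chr11:17119314-17119785) had 0.371, 0.363 and 0.44 in sgERH and 0.0424, 0.0495 and 0.026 in sgAAVS1 nuclei with DMSO, and 0.463, 0.488 and 0.422 in sgERH and 0.123, 0.102 and 0.0766 in sgAAVS1 nuclei with CHX (log2 fold change 2.95 ± 0.22, adjusted p = 4.05e-06). In the cytoplasm both reached the coverage needed for the test through sgERH libraries alone, so their values there are a description. Intron 16 had 0.0564, 0.0972 and 0.0977 in sgERH and 0, 0 and 0 in sgAAVS1 cytoplasm with DMSO, at least 23.4-fold higher in sgERH, a lower bound that sets the absent control coverage to 3 over the group. Intron 15 was at least 14.8-fold higher with DMSO by the same bound. The list of phosphoinositide kinases and phosphatases held 7 members in 5 genes (0.798% of its introns), of which 3 were called higher in nuclei with CHX, beside 45.8% of all members.

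HSPA4L, an Hsp110-type chaperone, held intron 10 (chr4:127805794-127807995). It had 0.177, 0.166 and 0.114 in sgERH and 0.0426, 0.0294 and 0.0202 in sgAAVS1 nuclei with DMSO, and 0.14, 0.123 and 0.145 in sgERH and 0.0476, 0.0373 and 0.0412 in sgAAVS1 nuclei with CHX (log2 fold change 1.87 ± 0.30, adjusted p = 0.000449). In the cytoplasm it had 0.0097, 0.0033 and 0.014 in sgERH and 0, 0 and 0 in sgAAVS1 with DMSO, and it was not called there.

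Genes of cell division held 21 members in 10 genes, or 1.22% of the introns of the mitosis and kinetochore list against 0.32% over all genes, a description of a list drawn up with these results known. In nuclei with CHX 13 were called higher and 1 lower, beside 45.8% and 3.13% of all members. ASPM, which organises spindle poles, held 4 members. ASPM intron 8 (chr1:197129318-197129914) had 0.571, 0.445 and 0.568 in sgERH and 0.0344, 0.024 and 0.0037 in sgAAVS1 nuclei with DMSO, and 0.323, 0.312 and 0.609 in sgERH and 0.0274, 0.0075 and 0.0726 in sgAAVS1 nuclei with CHX (log2 fold change 4.17 ± 0.59, adjusted p = 0.000148). ASPM intron 13 (chr1:197122596-197124109) had 0.416, 0.551 and 0.495 in sgERH and 0, 0.0171 and 0.0037 in sgAAVS1 nuclei with DMSO, and 0.522, 0.398 and 0.635 in sgERH and 0.222, 0.2 and 0.307 in sgAAVS1 nuclei with CHX (log2 fold change 1.71 ± 0.35, adjusted p = 0.00164). The sgERH and sgAAVS1 libraries did not overlap for either of these ASPM introns.

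Other division genes varied more. CENPE, a kinetochore motor, held 5 members, and its intron 27 had 0.0667, 0.472 and 0.179 in sgERH and 0.003, 0 and 0.0213 in sgAAVS1 nuclei with DMSO, with sgERH replicate 2 far above the other sgERH libraries. CENPE intron 31 was high under both guides with CHX, at 0.661, 0.714 and 0.751 in sgERH and 0.585, 0.599 and 0.559 in sgAAVS1 nuclei. Intron 8 of KIF18A, a kinesin that aligns chromosomes, had 0.235, 0.346 and 0.375 in sgERH and 0.0067, 0 and 0.0343 in sgAAVS1 nuclei with CHX (log2 fold change 4.65 ± 0.59, adjusted p = 0.000148). An intron of TTK, a spindle checkpoint kinase (chr6:80006176-80007808), had 0.632, 0 and 0.221 in sgERH and 0, 0 and 0 in sgAAVS1 nuclei with CHX, where 1 sgERH library held neither intron coverage nor spliced reads and is listed at 0, and was at least 20.9-fold higher, with enough coverage in sgERH alone.

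DNA repair and checkpoint genes held 21 members in 10 genes (1.04% of their introns), of which 12 were called higher and 1 lower in nuclei with CHX, beside 45.8% and 3.13% of all members. ATM, the kinase of the double-strand break response, held 5. ATM intron 9 (chr11:108249103-108250700) had 0.203, 0.302 and 0.482 in sgERH and 0.0062, 0.0287 and 0.0309 in sgAAVS1 nuclei with DMSO, and 0.551, 0.304 and 0.741 in sgERH and 0.172, 0.218 and 0.191 in sgAAVS1 nuclei with CHX. Intron 23 of FANCI, a protein of crosslink repair, had 0.402, 0.278 and 0.457 in sgERH and 0.0432, 0.0576 and 0.0326 in sgAAVS1 nuclei with CHX (log2 fold change 3.68 ± 0.28, adjusted p = 4.89e-06). A member in RAD50, of the complex that senses DNA breaks (chr5:132592035-132592763), had 0.401, 0.434 and 0.46 in sgERH and 0, 0.0572 and 0.0208 in sgAAVS1 nuclei with DMSO, and 0.438, 0.154 and 0.305 in sgERH and 0.366, 0.274 and 0.287 in sgAAVS1 nuclei with CHX, where the groups overlapped.

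DNA replication genes held 11 members in TOPBP1, TOP2B, TOP2A, RIF1 and MCM8 (0.931% of their introns), of which 5 were called higher in nuclei with CHX, beside 45.8% of all members. TOPBP1 activates ATR, and its intron 5 (chr3:133655487-133656675) had 0.36, 0.304 and 0.446 in sgERH and 0.004, 0.0219 and 0.0184 in sgAAVS1 nuclei with DMSO, and 0.608, 0.402 and 0.693 in sgERH and 0.144, 0.116 and 0.234 in sgAAVS1 nuclei with CHX (log2 fold change 2.73 ± 0.41, adjusted p = 0.000214). TOP2B, a type II topoisomerase, held 5 members. TOP2B intron 22 (chr3:25620063-25620681) had 0.343, 0.368 and 0.387 in sgERH and 0.038, 0.0622 and 0.029 in sgAAVS1 nuclei with DMSO, and 0.542, 0.479 and 0.586 in sgERH and 0.182, 0.215 and 0.212 in sgAAVS1 nuclei with CHX (log2 fold change 2.17 ± 0.21, adjusted p = 1.6e-05). TOP2B intron 11 had 0.166, 0.116 and 0.139 in sgERH and 0.0241, 0.01 and 0.0273 in sgAAVS1 nuclei with CHX (log2 fold change 2.86 ± 0.42, adjusted p = 0.000214), while TOP2B intron 24 had 0.198, 0.262 and 0.293 in sgERH and 0.231, 0.128 and 0.195 in sgAAVS1 nuclei, with overlap.

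Centrosome and cilium genes held 19 members in 13 genes (0.735% of their introns), of which 11 were called higher in nuclei with CHX, beside 45.8% of all members. Intron 12 of CEP290, a protein of the ciliary transition zone (chr12:88125370-88126315), had 0.181, 0.18 and 0.214 in sgERH and 0, 0 and 0.0055 in sgAAVS1 nuclei with DMSO. With CHX it had 0.246, 0.206 and 0.369 in sgERH and 0, 0.0041 and 0 in sgAAVS1 nuclei and was at least 22.5-fold higher, with enough coverage in sgERH alone. Intron 43 of DYNC2H1, the motor of transport inside cilia (chr11:103187587-103188496), had 0.375, 0.404 and 0.439 in sgERH and 0, 0 and 0.0089 in sgAAVS1 nuclei with DMSO, and 0.484, 0.576 and 0.569 in sgERH and 0.279, 0.148 and 0.271 in sgAAVS1 nuclei with CHX (log2 fold change 1.99 ± 0.35, adjusted p = 0.00136). The single member on the cohesin list (0.128% of its introns, under the 0.32% over all genes), intron 17 of the cohesin loader NIPBL, had 0.334, 0.463 and 0.38 in sgERH and 0.0563, 0.0211 and 0.0422 in sgAAVS1 nuclei with CHX (log2 fold change 3.94 ± 0.31, adjusted p = 1.32e-06).

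Genes of RNA export and decay were members too. The export list held 7 members in XPO1, NUP54 and NUP160 (0.621% of its introns), of which 6 were called higher in nuclei with CHX, beside 45.8% of all members. XPO1 is the export receptor of proteins and some RNAs, and its intron 15 had 0.288, 0.269 and 0.232 in sgERH and 0.0086, 0.0046 and 0.0081 in sgAAVS1 nuclei with DMSO, and 0.267, 0.169 and 0.238 in sgERH and 0.025, 0.0256 and 0.0272 in sgAAVS1 nuclei with CHX (log2 fold change 3.42 ± 0.21, adjusted p = 1.14e-06). XPO1 intron 18 (chr2:61488272-61488587) had 0.153, 0.112 and 0.144 in sgERH and 0.0105, 0.0103 and 0.0148 in sgAAVS1 nuclei with CHX (log2 fold change 3.69 ± 0.19, adjusted p = 6.65e-07). The surveillance list held 7 members in DIS3, SMG1, ZFC3H1, UPF2 and SMG6 (0.682% of its introns), of which 3 were called higher, beside the same 45.8%. DIS3 is the catalytic exosome subunit, and its intron 18 had 0.289, 0.288 and 0.283 in sgERH and 0.0697, 0.0741 and 0.102 in sgAAVS1 nuclei with CHX (log2 fold change 2.18 ± 0.25, adjusted p = 5.92e-05). SMG1 is the kinase that triggers NMD, and its intron 53 had 0.308, 0.311 and 0.219 in sgERH and 0.0469, 0.0612 and 0.0317 in sgAAVS1 nuclei with DMSO, and 0.232, 0.404 and 0.221 in sgERH and 0.228, 0.22 and 0.158 in sgAAVS1 nuclei with CHX. The spliceosome list held 4 members, in PPWD1, PRPF39, DHX15 and HNRNPDL, or 0.227% of its introns, under the 0.32% over all genes. PPWD1 intron 3 was called higher at 0.38, 0.151 and 0.363 in sgERH and 0.0392, 0.057 and 0.029 in sgAAVS1 nuclei with CHX (log2 fold change 3.25 ± 0.56, adjusted p = 0.000712).

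Chromatin genes held 8 members in 5 genes, or 0.293% of their introns, close to the 0.32% over all genes. Of these 4 were called higher and 1 lower in nuclei with CHX, beside 45.8% and 3.13% of all members. BPTF, a subunit of the NURF remodeller, held introns 9 and 10. BPTF intron 10 (chr17:67909762-67910876) had 0.33, 0.4 and 0.216 in sgERH and 0.0082, 0.0111 and 0.0196 in sgAAVS1 nuclei with DMSO, and 0.421, 0.374 and 0.544 in sgERH and 0.194, 0.197 and 0.265 in sgAAVS1 nuclei with CHX (log2 fold change 1.56 ± 0.31, adjusted p = 0.00203). Intron 11 of CHD1, a remodeller of transcribed genes (chr5:98896443-98897192), had 0.493, 0.504 and 0.608 in sgERH and 0.0204, 0 and 0.0101 in sgAAVS1 nuclei with DMSO and 0.309, 0.318 and 0.351 in sgERH and 0.122, 0.191 and 0.224 in sgAAVS1 nuclei with CHX. Outside the chromatin list, intron 14 of JMJD1C, a candidate histone demethylase (chr10:63193473-63194285), had 0.392, 0.376 and 0.415 in sgERH and 0.0674, 0.0713 and 0.0712 in sgAAVS1 nuclei with CHX (log2 fold change 3.11 ± 0.12, adjusted p = 4.59e-09).

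Ubiquitin ligases and deubiquitinases held 20 members in 12 genes (0.817% of their introns), of which 11 were called higher and 1 lower in nuclei with CHX, beside 45.8% and 3.13% of all members. UBE3A, an E3 ligase, held 5 members, several of which overlap one another and share reads. UBE3A intron 10 had 0.221, 0.259 and 0.284 in sgERH and 0.0249, 0.0066 and 0.001 in sgAAVS1 nuclei with DMSO, and 0.189, 0.223 and 0.237 in sgERH and 0.0408, 0.0392 and 0.0622 in sgAAVS1 nuclei with CHX (log2 fold change 2.43 ± 0.28, adjusted p = 5.27e-05). Intron 9 of CUL3, a cullin scaffold (chr2:224503073-224503651), had 0.327, 0.284 and 0.289 in sgERH and 0.0853, 0.0784 and 0.105 in sgAAVS1 nuclei with CHX (log2 fold change 2.11 ± 0.22, adjusted p = 2.4e-05). Intron 51 of BIRC6, an inhibitor of apoptosis, had 0.506, 0.569 and 0.739 in sgERH and 0.284, 0.288 and 0.284 in sgAAVS1 nuclei with CHX (log2 fold change 1.87 ± 0.34, adjusted p = 0.0011).

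Many members shared a host gene. Of the 272 host genes, 185 held 1 member and 87 held 2 or more, with 230 members between them, and 68 pairs of members were separated by a single exon. In all, 40 members overlapped another member and can share its reads, and counts of members and of calls include each of them. ABCA5, a lysosomal transporter, held the most, 7, and VPS13A, a lipid transfer protein, held 6. ABCA5 intron 25 had 0.424, 0.345 and 0.286 in sgERH and 0.0434, 0.0062 and 0.0436 in sgAAVS1 nuclei with CHX (log2 fold change 3.95 ± 0.40, adjusted p = 1.56e-05), and ABCA5 intron 8, with enough coverage in sgERH alone, was at least 18.4-fold higher there. VPS13A intron 48 (chr9:77339912-77340177) had 0.316, 0.356 and 0.4 in sgERH and 0, 0 and 0.007 in sgAAVS1 nuclei with DMSO, and 0.296, 0.725 and 0.397 in sgERH and 0.0603, 0.0823 and 0.0462 in sgAAVS1 nuclei with CHX (log2 fold change 3.62 ± 0.51, adjusted p = 9.44e-05). Intron 5 of CD46, a complement regulator (chr1:207761447-207767012), had 0.385, 0.183 and 0.405 in sgERH and 0.0043, 0.0004 and 0.008 in sgAAVS1 nuclei with CHX, without overlap (adjusted p = 3.28e-05).

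Some members were lower in sgERH than in sgAAVS1 nuclei with CHX, the opposite of their order with DMSO. Intron 11 of KIF20B, a kinesin of cytokinesis (chr10:89717723-89718709), had 0.334, 0.366 and 0.453 in sgERH and 0.0551, 0.0342 and 0.0459 in sgAAVS1 nuclei with DMSO, and 0.268, 0.185 and 0.308 in sgERH and 0.574, 0.552 and 0.439 in sgAAVS1 nuclei with CHX. Intron 18 of USP9X, a deubiquitinase (chrX:41168219-41169994), had 0.129, 0.091 and 0.103 in sgERH and 0.248, 0.191 and 0.196 in sgAAVS1 nuclei with CHX. Intron 15 of IPO8, a nuclear import receptor, had 0.129, 0.0312 and 0.113 in sgERH and 0.249, 0.244 and 0.139 in sgAAVS1 nuclei with CHX. The 13 such members were 3.13% of the 415, beside 20.6% of all introns tested. The share of members was 1.69% without sgAAVS1 nucleus CHX replicate 1 and 0.241% with intron and spliced columns scaled apart.

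In the cytoplasm with DMSO, 49 of the 415 members were called higher in sgERH than in sgAAVS1, beside 1.62% of the 52496 introns tested. For lower the count was 0 by edgeR, 0 at an unadjusted p under 0.05 and 0 by DESeq2, beside 0.425% of all introns. Only 310 members could be tested, 173 of them because sgERH libraries alone gave enough coverage, and 105 were too thinly covered. Of the 49, 21 reached the coverage minimum through sgERH alone, where a difference was built in. The other 28 were among the 137 that also reached it in sgAAVS1 with DMSO or CHX. In sgAAVS1 cytoplasm, coverage rounded to 0 in every library for 253 of the 310 with DMSO and for 110 with CHX. A difference from absent control coverage is therefore not confined to the 21. With CHX, 31 members were called higher, beside 0.69%, and 1 lower, intron 10 of ALOXE3, beside 0.328%. Of these 31, 12 reached the minimum through sgERH alone and 19 also in sgAAVS1. The ALOXE3 intron, in a lipoxygenase gene, had 0.0249, 0.0062 and 0.0489 in sgERH and 0.393, 0.205 and 0.195 in sgAAVS1 cytoplasm with CHX. Without sgERH cytoplasm CHX replicate 1 the share called higher with CHX was 4.82% of the 415, against 7.47% with it. Of the 415, 59 in 43 genes were called higher in either cytoplasmic comparison, 21 in both, and 16 in both and in nuclei with CHX. Nuclear RNAs used as markers of leakage summed to 573 to 601 CPM in sgERH and 276 to 342 CPM in sgAAVS1 cytoplasm with DMSO, and 544 to 594 CPM in sgERH and 300 to 366 CPM in sgAAVS1 with CHX. Their part in the cytoplasmic differences was not tested.

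A mean IR ratio of 0.15 was reached in sgERH cytoplasm by 17 members in 10 genes with DMSO and by 11 members in 8 genes with CHX. The highest mean with DMSO was that of intron 67 of TTN, the giant muscle protein titin, at 0, 0.743 and 0.833 in sgERH and 0, 0 and 0 in sgAAVS1 cytoplasm. It rested on a mean of 4 spliced reads in sgERH libraries, too few to test. Intron 10 of EML6, a microtubule-associated protein, had 0.39, 0.204 and 0.421 in sgERH and 0, 0 and 0.0054 in sgAAVS1 cytoplasm with DMSO. Intron 19 of TRPM7, an ion channel fused to a kinase (chr15:50607329-50609580), had 0.354, 0.392 and 0.403 in sgERH and 0.0291, 0.0224 and 0.0267 in sgAAVS1 nuclei with DMSO. In the cytoplasm it had 0.297, 0.312 and 0.294 in sgERH and 0, 0.0024 and 0 in sgAAVS1 with DMSO, at least 59.6-fold higher, a description because sgERH libraries alone gave enough coverage. The cytoplasmic level of TRPM7 intron 19 was thus close to the nuclear one. BPTF intron 9 (chr17:67904841-67909581) had 0.196, 0.167 and 0.21 in sgERH and 0, 0 and 0 in sgAAVS1 cytoplasm with DMSO, at least 72.4-fold higher (adjusted p = 9.47e-05). In sgAAVS1 cytoplasm it reached the coverage minimum with CHX only. BPTF intron 10 had 0.328, 0.156 and 0.199 in sgERH and 0.016, 0.0084 and 0.0141 in sgAAVS1 cytoplasm with CHX (log2 fold change 4.41 ± 0.43, adjusted p = 3.75e-05).

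ASPM intron 13 had 0.58, 0.456 and 0.409 in sgERH and 0.0069, 0.0072 and 0 in sgAAVS1 cytoplasm with DMSO, and 0.17, 0.139 and 0.311 in sgERH and 0.017, 0.0077 and 0.0029 in sgAAVS1 cytoplasm with CHX (log2 fold change 4.32 ± 0.55, adjusted p = 0.00051). TOPBP1 intron 5 had 0.131, 0.132 and 0.217 in sgERH and 0.0003, 0.0014 and 0.0053 in sgAAVS1 cytoplasm with DMSO (log2 fold change 6.28 ± 0.55, adjusted p = 1.68e-05). USP9X intron 19 (chrX:41170236-41170469) had 0.0851, 0.0993 and 0.106 in sgERH and 0, 0 and 0 in sgAAVS1 cytoplasm with DMSO, at least 70.7-fold higher (adjusted p = 2.93e-05), and reached the coverage minimum in sgAAVS1 cytoplasm with CHX only. With DMSO these members did not overlap between the guides, with sgERH above, as for 243 of the 415 members and 10.6% of all introns. USP9X intron 19 did overlap with CHX. CENPE intron 27 had 0.212, 0.146 and 0.242 in sgERH and 0.0306, 0.0277 and 0.0374 in sgAAVS1 cytoplasm with CHX (log2 fold change 2.85 ± 0.41, adjusted p = 0.00407). ATR intron 37, by contrast with its nuclear level, had 0.0269, 0.002 and 0.106 in sgERH and 0, 0 and 0.0001 in sgAAVS1 cytoplasm with DMSO, where it was not called, and 0.0855, 0.0526 and 0.0705 in sgERH and 0, 0 and 0 in sgAAVS1 cytoplasm with CHX, at least 15.9-fold higher, again a description because sgERH libraries alone gave enough coverage.

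Few members were called changed by cycloheximide within sgERH cytoplasm. A call needed a mean IR ratio of 0.05, which only 85 of the 415 members reached there with DMSO or CHX. The low count therefore cannot show that cycloheximide left the other members unchanged. Of the 310 tested, 31 were higher and 26 lower at an unadjusted p under 0.05 in edgeR's test. Against DMSO, 1 member was called higher, intron 8 of ENSG00000285953, a gene without a symbol, beside 0.272% of all introns, and 3 lower, beside 1.2%. ASPM intron 13 had 0.17, 0.139 and 0.311 with CHX and 0.58, 0.456 and 0.409 with DMSO (log2 fold change -2.05 ± 0.40, adjusted p = 0.00879). USP9X intron 19 had 0.0288, 0.0235 and 0.024 with CHX and 0.0851, 0.0993 and 0.106 with DMSO (log2 fold change -1.94 ± 0.34, adjusted p = 0.011). Intron 7 of TRNT1, which adds the CCA end of tRNAs, had 0.014, 0.0252 and 0.0239 with CHX and 0.0653, 0.0437 and 0.0755 with DMSO (log2 fold change -1.64 ± 0.35, adjusted p = 0.0181). Without sgERH cytoplasm CHX replicate 1 the adjusted p was 0.0509 for ASPM, 0.0512 for USP9X and 0.0856 for TRNT1. Without sgERH cytoplasm DMSO replicate 1 it was 0.0676 for ASPM and 0.0658 for TRNT1, and without DMSO replicate 3 it was 0.0833 for TRNT1. The sgERH effect in the cytoplasm was called smaller with CHX than with DMSO for 2 members, introns 18 and 19 of USP9X, beside 0.0114% of all introns, and for 0 of the 415 without any one cytoplasmic library other than replicate 2 of sgAAVS1 or replicate 3 of sgERH with CHX.

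The sgERH effect in nuclei minus that in cytoplasm could be tested with CHX for 401 members. It was called lower for 5, beside 0.815% of the 118980 introns tested, and for higher the count was 0 by edgeR, 4 at an unadjusted p under 0.05 and 0 by DESeq2, beside 0.00084%. In simulated data this fit recovered only 11.5% of introns given a log2 change of 2. The count of 0 therefore cannot show that no member had a larger nuclear effect. The 5 were introns of JMJD1C, KIF20B, CHD8 and BPTF, the last with a pair. The median over the 401 was -1.20, and over all introns -1.21. Leaving out single libraries took the share from 1.2% of the 415 to between 0 and 2.89%: it was 0 without replicates 1 or 2 of sgAAVS1 cytoplasm, replicate 1 of sgAAVS1 nuclei or replicates 1 or 3 of sgERH cytoplasm, and 0.241% without replicate 3 of sgAAVS1 cytoplasm or replicates 2 or 3 of sgAAVS1 nuclei, and 2.89% without replicate 3 of sgERH nuclei.

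Host genes were compared by their total counts, with fold changes of the gene's level and the same limits on p and size for a call. In the cytoplasm with DMSO, 43 of the 272 host genes were called lower in sgERH than in sgAAVS1 and 9 higher, beside 2.16% and 9.3% of the 16130 genes tested, and their median log2 fold change was -0.34 against 0.04 over all genes. With CHX 16 were lower and 7 higher, beside 1.43% and 5.79%. In nuclei with CHX 21 were lower and 2 higher, beside 3.68% and 5.29% of 17330 genes. In bulk RNA, fewer cells of one cell-cycle stage and less RNA per cell cannot be told apart. Mitochondrial mRNAs took 5.15% to 6.22% of counts in sgERH and 3.29% to 3.78% in sgAAVS1 cytoplasm with DMSO, and 4.18% to 4.75% in sgERH and 2.81% to 3% in sgAAVS1 with CHX. Their part in the host gene differences was not tested.

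The host genes with the largest falls in the cytoplasm included genes of cell division. CENPE had 22.8, 18.6 and 17 CPM in sgERH and 107, 101 and 78.8 CPM in sgAAVS1 cytoplasm with DMSO (log2 fold change -2.29 ± 0.12, adjusted p = 2.1e-10), and in nuclei with CHX it averaged 114 ± 9.24 CPM in sgERH and 323 ± 16.6 CPM in sgAAVS1 (SD, n = 3 each; log2 fold change -1.5 ± 0.10, adjusted p = 8.55e-09). LRRCC1, a centrosomal protein, had 13.7, 11.3 and 15 CPM in sgERH and 59.6, 57.4 and 53.5 CPM in sgAAVS1 cytoplasm with DMSO (log2 fold change -2.09 ± 0.09, adjusted p = 3.1e-11). KIF2A, a microtubule-depolymerising kinesin, had 44.8, 43.9 and 45.3 CPM in sgERH and 158, 163 and 161 CPM in sgAAVS1 cytoplasm with DMSO (log2 fold change -1.85 ± 0.05, adjusted p = 6.51e-13). Of the 10 host genes on the mitosis list, BUB1B, CENPE, KIF15, KIF20B, KIF2A and TTK were called lower there, as were 21 of all 98 genes on the list.

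ATR had 23.1, 23.7 and 28 CPM in sgERH and 58, 61.5 and 61.2 CPM in sgAAVS1 cytoplasm with DMSO (log2 fold change -1.27 ± 0.09, adjusted p = 1.15e-08), and TOPBP1 had 101, 99.4 and 98.2 CPM in sgERH and 237, 242 and 211 CPM in sgAAVS1 (log2 fold change -1.21 ± 0.06, adjusted p = 7.28e-11). JAK2 had 8.41, 7.84 and 7.57 CPM in sgERH and 23.6, 24.1 and 21.3 CPM in sgAAVS1 cytoplasm with DMSO (log2 fold change -1.53 ± 0.08, adjusted p = 2.01e-10), while with CHX it had 12.9, 12.4 and 11.7 CPM in sgERH and 19, 19.9 and 20.7 CPM in sgAAVS1 cytoplasm (log2 fold change -0.68 ± 0.08, adjusted p = 1.54e-06), under the size needed for a call. HSPA4L had 57.3, 57 and 58.4 CPM in sgERH and 155, 151 and 131 CPM in sgAAVS1 cytoplasm with DMSO (log2 fold change -1.34 ± 0.06, adjusted p = 8.28e-11). PIK3C2A had 83.3, 82.5 and 87.7 CPM in sgERH and 142, 149 and 135 CPM in sgAAVS1 cytoplasm with DMSO (log2 fold change -0.75 ± 0.06, adjusted p = 6.67e-08), also under that size. Among host genes of the introns described above as high in the cytoplasm, TOPBP1 and CENPE were thus called lower, while ASPM, TRPM7 and BPTF were under the size needed. ASPM had 55.3, 50.2 and 61.9 CPM in sgERH and 84.6, 84.8 and 73.1 CPM in sgAAVS1 cytoplasm with DMSO (log2 fold change -0.54 ± 0.08, adjusted p = 2.92e-05). TRPM7 had 72, 74.8 and 72 CPM in sgERH and 75.9, 85.9 and 83.5 CPM in sgAAVS1 cytoplasm with DMSO (log2 fold change -0.17 ± 0.06, adjusted p = 0.0264). BPTF had 146, 136 and 126 CPM in sgERH and 175, 170 and 160 CPM in sgAAVS1 (log2 fold change -0.31 ± 0.06, adjusted p = 0.000505).

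Nuclear and cytoplasmic levels moved apart for few host genes, at shares below those of all genes. With CHX the sgERH effect was higher in nuclei than in cytoplasm for 7 host genes (2.59% of those tested) and lower for 6 (2.22%). Over all 17773 genes the shares were 3.43% and 3.4%. TOP2B had 416, 475 and 426 CPM in sgERH and 244, 228 and 248 CPM in sgAAVS1 nuclei with CHX and 181, 185 and 169 CPM in sgERH and 252, 238 and 252 CPM in sgAAVS1 cytoplasm with CHX (log2 fold change 1.44 ± 0.11, adjusted p = 6.41e-07 for the difference). BRIP1, a helicase of DNA repair, was lower in nuclei with CHX, at 160, 174 and 176 CPM in sgERH and 516, 453 and 506 CPM in sgAAVS1 (log2 fold change -1.53 ± 0.07, adjusted p = 2.06e-10). Few host genes were higher: CLCN5, an endosomal chloride transporter, had 21.9, 22.4 and 19.4 CPM in sgERH and 9.24, 8.58 and 8.56 CPM in sgAAVS1 cytoplasm with DMSO (log2 fold change 1.27 ± 0.09, adjusted p = 5.05e-09), and PTPRH, a receptor phosphatase, had 2.2, 2.12 and 2.52 CPM in sgERH and 0.405, 0.382 and 0.4 CPM in sgAAVS1 (log2 fold change 2.52 ± 0.20, adjusted p = 2.17e-08).

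**Figure D4:**
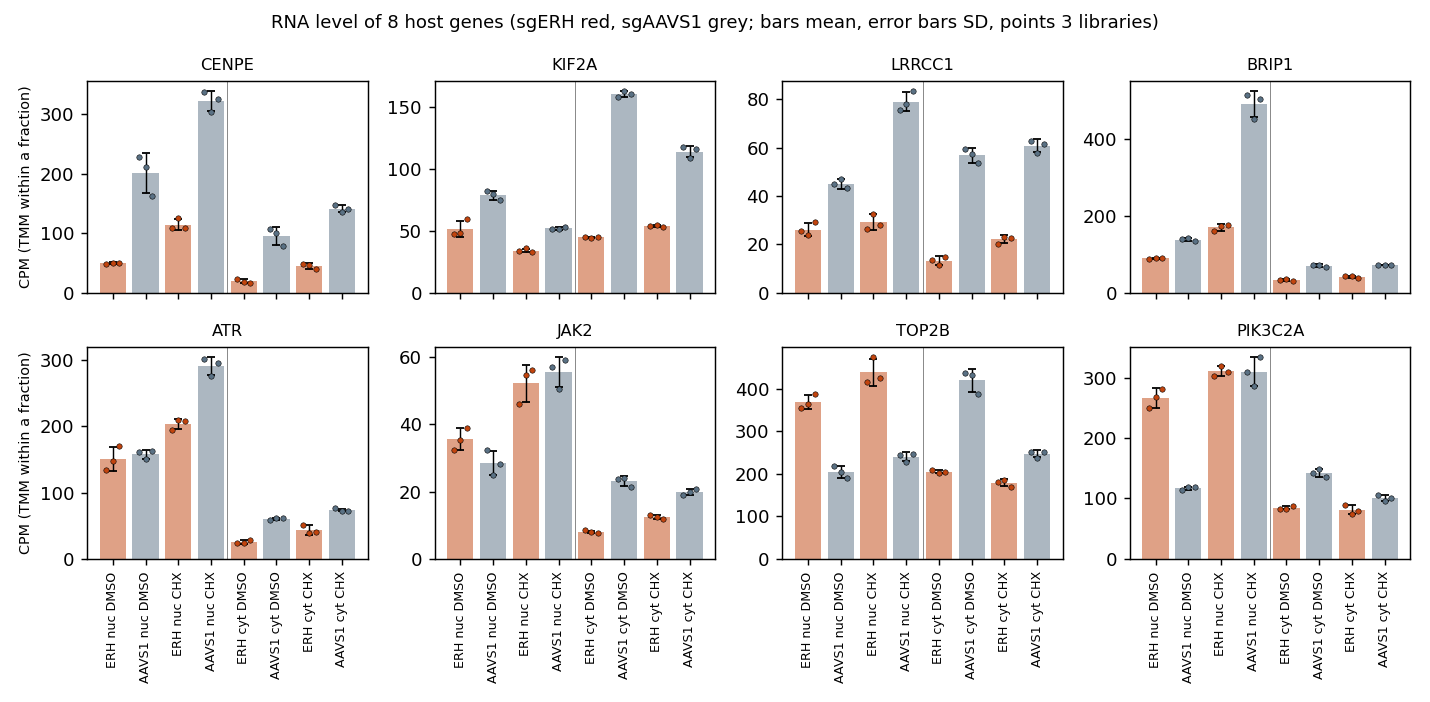
CPM (vertical axes) of 8 host genes in the 8 groups, sgERH in red before sgAAVS1 in grey; bars show the group mean with its SD, points each of the 3 libraries, scaled within a fraction. CENPE, KIF2A, LRRCC1, ATR and JAK2 are lower in sgERH cytoplasm with DMSO without overlap, while TOP2B is higher in sgERH nuclei with CHX.

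The introns chosen differed in sequence from other introns, and these values are given as a description. Their median GC content was 34.3%, against 49.8% for the 27266 introns that averaged at least 0.15 under both guides, 41.3% for the 57011 introns under 0.05 in both, and 43.3% for all that reached the coverage minimum. The exon upstream had a median GC content of 38.02% for members, 56.2% for introns retained under both guides and 49.6% for all. Median length was 1004 bases for members, 1257 bases for introns retained under both guides and 1827 bases for all. Over 10 kb were 0.96% of members and 13.7% of all.

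Splice site scores sum over positions the log2 odds of each base among canonical introns that reached the coverage minimum against equal base shares. They were close to those of all introns and above those of introns retained under both guides. The median 5′ splice site score was 8.27 for members and 8.22 for all, and the 3′ score was 9.77 for members and 9.56 for all, against 7.9 and 8.53 for introns retained under both guides. The letters at the 5′ end nevertheless differed: GTAAGT opened 21.9% of members and 13.4% of all, read on the transcribed strand only, and GTGAGT opened 4.34% of members and 13.2% of all. Among introns under 0.05 with both guides the shares were 15.4% for GTAAGT and 12.4% for GTGAGT. The third intron base was A in 82.9% of members and 60.2% of all. Members came from transcripts with a median of 24 introns, against 16 for all, and 0.26% of members were first introns, against 7.22% of all. With 1 member per gene the median GC content was 34.7% and the median length 1025 bases.

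**Figure D5:**
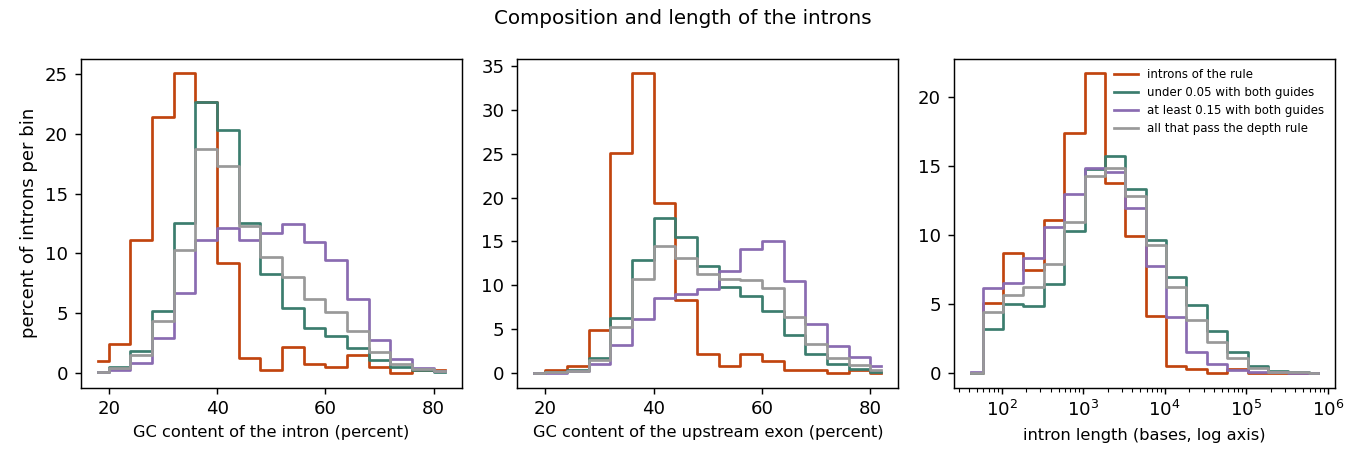
Intron GC content (percent), GC content of the upstream exon (percent) and intron length (bases, log axis) for the introns chosen, introns under 0.05 with both guides, introns at 0.15 or more with both guides, and all that reached the coverage minimum. The chosen introns have the lowest GC content of the sets, with a median of 34.3%, in contrast with 49.8% for introns retained with both guides.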

How the data were processed

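Polyadenylated RNA of 24 libraries was sequenced by the study, and per the study's methods reads were trimmed with fastp, aligned with STAR to GRCh38 and quantified with salmon, and introns were called with IRFinder-S. For genes, the deposited values are salmon's expected counts of each transcript, here summed within genes and rounded to whole numbers. Introns came as 1 table per library. In these the deposited intron depth is a coverage signal, the spliced and boundary reads are counts, and the IR ratio and the covered share of the intron are a fraction. Tables of transcript TPM and length were not used, and results on withheld items are not reported here.

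The introns, gene lists and tests were chosen with earlier results of these data known. Groups came from the sample labels. Introns were tested with edgeR 4.0.16 (R 4.3.3, quasi-likelihood) on rounded intron depth against spliced reads, the 12 libraries of a fraction (or with CHX) fitted together with 1 intercept per library, where depth plus spliced reads averaged at least 10 and mean depth reached 1 in a group. Genes were tested likewise with TMM scaling after filterByExpr with a minimum count of 10. Same-numbered libraries of the guides deviated together in gene levels in the cytoplasm with DMSO (r of 0.227, 0.16 and 0.232 over genes), but not in each pair of the other comparisons, and the block was kept as an alternative. Sample numbers match between nuclear and cytoplasmic libraries, but the main fit across fractions did not pair them. With CHX their gene deviations correlated between fractions at 0.009, 0.433 and 0.364 in sgERH and -0.002, 0.177 and 0.161 in sgAAVS1. P-values were adjusted over all introns or genes tested. Libraries held 27.85 to 79.45 M counts, and lower bounds cover counting error only. Named introns were the members of JAK2, PIK3C2A and HSPA4L, those with the most retention, those nearest the limits, those of the genes with the most members, the extremes of each test and up to 3 per gene list, with their host genes. Other members named were chosen after their values were seen. Sequences and intron numbers came from the reference genome and annotation of GRCh38. DESeq2 1.42.0, other scalings and filters, other limits, a replicate block and leaving out single libraries were tried as alternatives, and the fits were tested on simulated data.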

Additional observations from a re-analysis of the deposited data

Results flagged for a closer look

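For the results below a test of the difference itself, between fractions or between treatments, passed the threshold of an adjusted p of 0.05 in edgeR's quasi-likelihood test. The sgERH effect on retention with CHX was smaller in nuclei than in cytoplasm for 5 introns. The difference on the log2 scale was -1.5 ± 0.29 (adjusted p = 0.0318) for JMJD1C intron 14, -2.70 ± 0.54 (adjusted p = 0.034) for KIF20B intron 11 and -2.22 ± 0.39 (adjusted p = 0.0213) for CHD8 intron 13. It was -3.90 ± 0.73 (adjusted p = 0.0269) for BPTF intron 9 and -2.84 ± 0.60 (adjusted p = 0.0445) for BPTF intron 10. The median over all introns was -1.21, and each of these calls was lost when intron and spliced columns were scaled apart.

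In the cytoplasm the sgERH effect was smaller with CHX than with DMSO, with a difference of -8.24 ± 0.86 (adjusted p = 0.0239) for USP9X intron 18 and of -8.64 ± 1.07 (adjusted p = 0.0481) for USP9X intron 19. Both introns had no coverage in sgAAVS1 cytoplasm with DMSO, so the size of these values depends on the prior count of the fit. Both calls were lost with the replicate block (adjusted p = 0.0807 for intron 18 and 0.0874 for intron 19) and without any single cytoplasmic library other than sgAAVS1 CHX replicate 2 or, for intron 18 alone, sgERH CHX replicate 3. USP9X intron 19 had 0.0288, 0.0235 and 0.024 in sgERH and 0.0139, 0.0041 and 0.0329 in sgAAVS1 cytoplasm with CHX and 0.0851, 0.0993 and 0.106 in sgERH and 0, 0 and 0 in sgAAVS1 cytoplasm with DMSO.

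For host genes, the sgERH effect on the level with CHX was higher in nuclei than in cytoplasm by 1.44 ± 0.11 for TOP2B, 1.52 ± 0.17 for TDRD7, 1.16 ± 0.12 for DYNC2H1, 1.05 ± 0.15 for LRBA, 1.02 ± 0.15 for EFCAB7 and 1.01 ± 0.14 for ZMYM4, on the log2 scale. It was lower in nuclei for CLCN5 (-1.64 ± 0.13), MSH4 (-1.69 ± 0.42), BAIAP3 (-1.47 ± 0.31) and DMXL1 (-1.25 ± 0.13). It was also lower for ENSG00000283782 (-1.64 ± 0.21) and ENSG00000286235 (-11.47 ± 1.97), genes without a symbol whose counts may be shared with an overlapping gene. LRBA, EFCAB7 and ZMYM4 lie close to the size threshold of 1 and fell under it in some alternatives. Host genes were called at shares below those of all genes, 2.59% against 3.43% for higher and 2.22% against 3.4% for lower.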

How the results depend on the processing

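Values here are percent of the 415 introns or of the 272 host genes. Requiring an IR ratio under 0.03 in sgAAVS1 and at least 0.20 in sgERH left 134 introns, and requiring no warning in all 6 libraries left 43. With the 134 introns, 23.9% were called higher in the cytoplasm with DMSO and 14.2% with CHX, 2.24% had a smaller sgERH effect in nuclei than in cytoplasm, 2.24% were changed by CHX in sgERH cytoplasm and 0.746% had a smaller cytoplasmic effect with CHX. Of their host genes, 23.9% were lower in the cytoplasm with DMSO and 6.52% had a relatively higher nuclear effect. DESeq2 gave 1.45% lower in nuclei with CHX, 0.241% with a smaller nuclear effect and 1.2% with a smaller cytoplasmic effect with CHX. Scaling intron and spliced columns apart, an alternative chosen after seeing the data, gave 0.241%, 0.0% and 0.241% for these, and 2.17% changed by CHX in sgERH cytoplasm. A fit of only the groups compared gave 0.482% for the last, and is the same fit for the difference between fractions.

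Leaving out 1 library at a time gave 437 to 465 introns by the choice, 40% to 49.4% higher and 1.69% to 3.13% lower in nuclei with CHX, 10.1% to 12.5% higher in the cytoplasm with DMSO and 4.82% to 6.51% with CHX, 0 to 2.89% with a smaller nuclear effect, 0 to 1.2% changed by CHX and 0 to 0.482% with a smaller cytoplasmic effect with CHX. For host genes it gave 14.3% to 16.9% lower in the cytoplasm with DMSO, 5.15% to 6.99% with CHX, 6.25% to 8.09% lower in nuclei with CHX and 1.84% to 3.31% with a higher nuclear effect. For introns, replicate numbers did not pair the libraries, since deviations correlated above 0.1 in 1 of 18 pairs. For gene levels 13 of 18 pairs did, and with the replicate block 15.8% of host genes were lower in the cytoplasm with DMSO and 5.88% with CHX, 7.72% were lower in nuclei with CHX and 2.57% had a higher nuclear effect, which changed no call of a named host gene. For introns with the replicate block, 46.7% were higher in nuclei with CHX, 11.1% and 6.27% in the cytoplasm with DMSO and CHX, 1.69% had a smaller nuclear effect and 0.0% a smaller cytoplasmic effect with CHX. Of 105 named results, 13 lost their call in an alternative and 0 reversed. No loss in this tally was of a member called lower in nuclei with CHX. The number of such members fell from 13 to 6 with DESeq2 and to 1 with intron and spliced columns scaled apart. Coverage limits the cytoplasm, where 105 members could not be tested.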
